A study of Homo sapiens with 6 samples.

Results

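The 7SK windows were all 54 entries of the count table that carry the label 7SK, out of 53603 windows in all. Of these, 2 overlap the RN7SK gene on chromosome 6, which encodes 7SK RNA, and the other 52 were taken as copies of it elsewhere in the genome. Small RNA was counted over windows of 400 bp in HEK293T, a line derived from human embryonic kidney, after 48 h with 150 nM of a control siRNA (3 biological replicates) or of an siRNA against La, the protein encoded by SSB (3 biological replicates). No other agent or genotype distinguished the arms, and both arms are 1 transformed line, transfected transiently. The windows read small RNA and not mRNA, so the identity of the line could not be checked against marker genes.

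7SK is a nuclear RNA made by RNA polymerase III from a promoter that lies upstream of the gene, of the kind called type 3 and shared with the U6 genes. It holds the transcription elongation factor P-TEFb (CDK9 with a cyclin T) inactive through the HEXIM proteins, so that release from 7SK lets RNA polymerase II leave its pause. MEPCE caps its 5′ end and LARP7, a relative of La, stays bound to its U-rich 3′ end, while La itself holds on to the U-rich ends of such transcripts while they mature. The genome also carries many dispersed copies of 7SK, mostly annotated as pseudogenes (RN7SKP genes) and often truncated.

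The sequence of RN7SK is shown in 3 pieces because the 2 windows divide it in this way, and because the last piece carries the end that La and LARP7 bind. It is taken from a GENCODE release 29 transcript of 331 bases (GRCh38, chr6:52995620-52995950, plus strand) that contains the gene named RN7SK. The sequence is written as DNA, 5′ to 3′, with the terminal run of 3 T in capitals. The gene named RN7SK in that release is shorter. It starts after the first base of this transcript and ends within the terminal run of T. Base numbers and the start and end of the RNA follow the longer transcript throughout. Bases 1 to 54 lie only in the window that holds the annotated start, bases 55 to 250 lie in both windows, and bases 251 to 331 lie only in the second.
RN7SK bases 1 to 54: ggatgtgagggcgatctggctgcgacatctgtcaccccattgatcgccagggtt
RN7SK bases 55 to 250: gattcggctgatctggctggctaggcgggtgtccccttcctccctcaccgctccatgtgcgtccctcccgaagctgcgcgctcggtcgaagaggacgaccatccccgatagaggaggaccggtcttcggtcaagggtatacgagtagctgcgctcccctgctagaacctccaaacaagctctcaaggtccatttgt
RN7SK bases 251 to 331: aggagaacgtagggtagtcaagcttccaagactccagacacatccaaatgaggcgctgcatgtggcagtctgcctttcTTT

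The start-site window of RN7SK ran over chr6:52995470-52995869, from 150 bases before the start to base 250 of the RNA. The second window, here called the downstream window, ran over chr6:52995674-52996073 and so covered base 55 to the end of the RNA and 123 bases beyond it. GENCODE release 29 places 0 transcript starts inside the downstream window. The start-site window had 814, 671 and 662 counts with the control siRNA (replicates 1 to 3, here and in later lists) and 674, 584 and 739 after La knockdown. The downstream window had 3731, 4521 and 5262 counts with the control siRNA and 5233, 5034 and 4123 after La knockdown. The downstream window was thus the higher in each of the 6 libraries, by 4.58 to 8.62 times.

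If a read lying in both windows was counted in both, most reads of the downstream window lay past base 250 of 7SK RNA. The sources used here do not give how such reads were counted. Reads that reach the downstream window but not the start-site window can lie only in the last 81 bases of the RNA or in the 123 bases after it. Under that condition the difference between the windows gives the least number of such reads. By this measure at least 2917, 3850 and 4600 reads with the control siRNA and 4559, 4450 and 3384 after La knockdown lay past base 250. As a share of the downstream window that was at least 78.2%, 85.2% and 87.4% with the control siRNA and at least 87.1%, 88.4% and 82.1% after La knockdown. The arms overlapped in this share, which averaged 83.6% ± 4.81 and 85.9% ± 3.34 (SD, n = 3 each). Control replicate 1 and La knockdown replicate 3 had the lowest share in their arms. These counts do not show whether the reads lie in the RNA or after it, since positions within a window are not given.

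**Figure D1:**
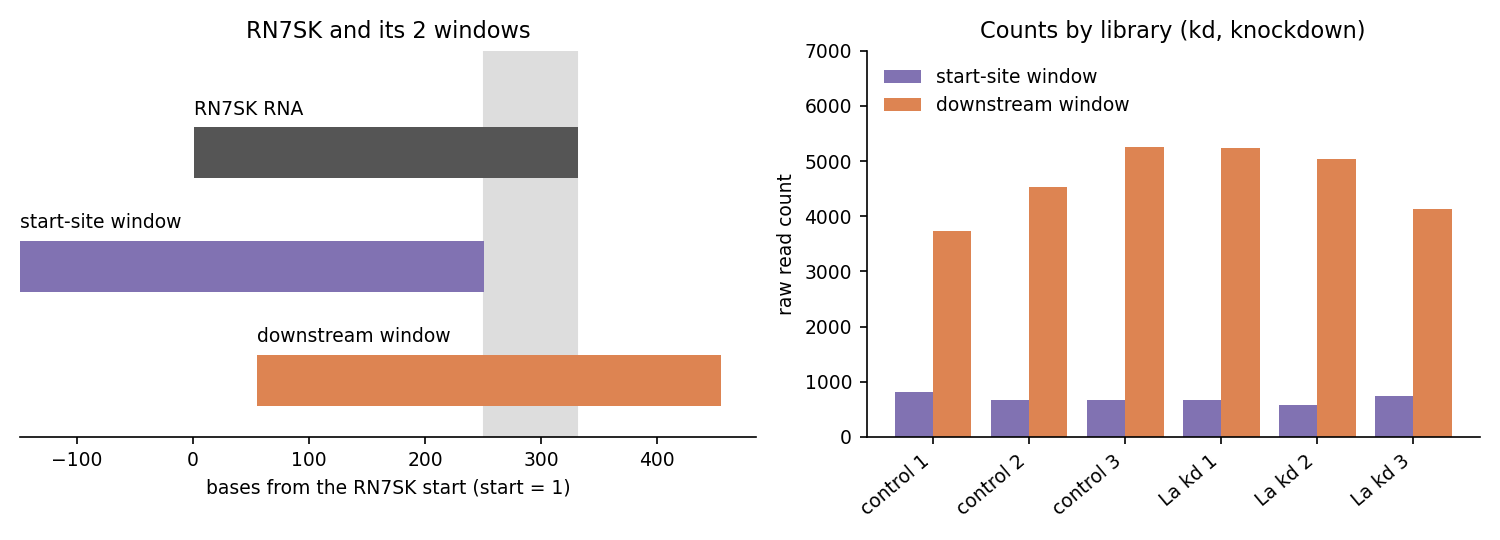
Left, the RN7SK RNA and its 2 windows drawn to scale in bases from the RN7SK start, with bases 251 to 331 shaded. Right, raw read counts of both windows in each library: the start-site window stayed between 584 and 814 counts and the downstream window between 3731 and 5262.

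Neither RN7SK window passed the test between the arms. CPM here are counts relative to the library's sum over the windows with enough reads to be tested, with TMM factors. The start-site window stood at 212, 198 and 172 CPM with the control siRNA and 242, 172 and 233 CPM after La knockdown. The arms overlapped, with means of 194 ± 20.8 and 216 ± 37.9 CPM (SD, n = 3 each). Its log2 fold change was 0.15 (SE 0.24, 95% interval -0.39 to 0.69), with an edgeR quasi-likelihood adjusted p of 0.683. The downstream window stood at 974, 1337 and 1364 CPM with the control siRNA and 1876, 1483 and 1299 CPM after La knockdown. Here too the arms overlapped, although control replicate 1 was the lowest and La knockdown replicate 1 the highest of the 6. Its log2 fold change was 0.34 (SE 0.24, 95% interval -0.19 to 0.88, edgeR adjusted p = 0.363). P-values here set the difference between the arms against the spread between these replicates. Both intervals span 0, and differences within them were not detectable with 3 libraries per arm. Without a filter on low counts the start-site value changed sign, to -0.10, and without La knockdown replicate 3 it was 0.02. The downstream value was 0.16 without La knockdown replicate 1 and 0.20 without control replicate 1. In bulk RNA, a change in the number of cells that make an RNA and a change in its amount per cell cannot be told apart.

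Among the copies, reads were concentrated in 3. Over the 6 libraries the 52 copy windows had 2271 reads, and 29 of them had none. The 23 copy windows with a read stand beside 21830 of all 53603 windows, a similar share. A library without a read leaves room for up to 3 counts, or 0.731 to 0.978 CPM of the library total, which covers counting error only. RN7SKP203, RN7SKP80 and RN7SKP71 had 766, 684 and 452 reads and together made up most of the copy reads in every library, up to 86.6%. A further 9 copies had from 11 to 75 reads and 11 had from 1 to 8. Between 14 and 18 copies had a read in any one library, beside 7531 to 9588 of all windows.

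The 3 copies with the most reads were also the 3 closest to RN7SK over the stretch that lies in their windows, though not over their whole length. RN7SKP203 lies between annotated genes on chromosome 2, RN7SKP80 on chromosome 22 within introns of RRP7BP (same strand) and SERHL2 (opposite strand), and RN7SKP71 on chromosome 12 within an intron of HECTD4 (opposite strand). The stretches of these copies inside their windows are given here from GENCODE release 29 (GRCh38), 5′ to 3′ on the strand of the copy, with bases that differ from RN7SK or are absent from it in capitals. RN7SKP62 on chromosome 5 is added as the copy without a read that has the highest identity, and was chosen after its values were seen. RN7SKP203 spans chr2:76445161-76445410 (minus strand), RN7SKP80 chr22:42565081-42565330 (minus), RN7SKP71 chr12:112267077-112267325 (plus) and RN7SKP62 chr5:100733058-100733306 (plus).
RN7SKP203: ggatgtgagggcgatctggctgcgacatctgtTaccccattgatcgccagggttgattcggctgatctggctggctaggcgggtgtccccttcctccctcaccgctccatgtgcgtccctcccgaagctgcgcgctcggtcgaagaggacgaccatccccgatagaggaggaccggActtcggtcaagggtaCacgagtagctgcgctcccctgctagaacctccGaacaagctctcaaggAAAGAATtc
RN7SKP80: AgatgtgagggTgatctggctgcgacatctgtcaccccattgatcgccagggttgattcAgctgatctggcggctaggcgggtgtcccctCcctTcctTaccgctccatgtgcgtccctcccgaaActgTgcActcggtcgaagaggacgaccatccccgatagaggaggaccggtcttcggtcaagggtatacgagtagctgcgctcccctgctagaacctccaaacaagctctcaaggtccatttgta
RN7SKP71: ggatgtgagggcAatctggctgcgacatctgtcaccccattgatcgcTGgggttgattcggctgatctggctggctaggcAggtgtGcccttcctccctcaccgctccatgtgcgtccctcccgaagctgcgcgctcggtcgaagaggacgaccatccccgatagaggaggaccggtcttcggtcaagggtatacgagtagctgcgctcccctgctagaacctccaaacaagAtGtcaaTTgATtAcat
RN7SKP62: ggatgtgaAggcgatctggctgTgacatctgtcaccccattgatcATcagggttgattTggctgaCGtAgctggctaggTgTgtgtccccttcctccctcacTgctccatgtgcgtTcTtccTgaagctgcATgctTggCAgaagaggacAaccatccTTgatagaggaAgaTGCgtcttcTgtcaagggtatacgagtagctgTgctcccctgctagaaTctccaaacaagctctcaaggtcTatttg

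Identity to RN7SK over these stretches, counting gaps as differences, was 95.6% for RN7SKP203, 96.0% for RN7SKP80 and 95.2% for RN7SKP71. No other of the 50 annotated copies exceeded 90.5%, and RN7SKP62 reached 88.0%. Over the whole annotated copy identity was 92.7% for RN7SKP80 but 85.4% for RN7SKP203 and 83.8% for RN7SKP71, below the 87.0% of RN7SKP62. The differences of RN7SKP62 are spread along its length, with a longest exact match of 22 bases, whereas the other printed copies share exact runs of 143, 117 and 145 bases with RN7SK. In the alignments, the stretches of RN7SKP203, RN7SKP71 and RN7SKP80 reach base 243, 246 and 251 of RN7SK, so their windows hold little or nothing that corresponds to its last 81 bases.

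Whether a copy had a read went with exact sequence shared with RN7SK. The measure used was the share of the copy's bases in the window that lie in stretches of at least 20 bases identical to RN7SK. Of the 29 copies with any such stretch, 22 had a read. Of the 21 copies without one, 0 had a read. The share ranged from 8.80% to 84.3% among copies with a read (median 26.6%) and from 0% to 34.5% among copies without (median 0%). Across the 50 copies the rank correlation of reads with this share was 0.84, and 0.81 over the 47 copies left when the 3 well-read ones were set aside. With overall identity the rank correlations were 0.66 and 0.59. These are descriptions over sites that share the same libraries and one parent sequence. RN7SKP228, for example, was only 70.4% identical overall but had 38.8% of its bases in shared stretches and 75 reads, the most after the first 3. RN7SKP69 (chosen after its values were seen) had 52.4% in shared stretches but only 11 reads. All 7 copies that end inside their window had no read, and each of these also had 0% of its bases in shared stretches. Of the 2 windows on chromosome 8 without an annotated copy, 1 had a single read.

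**Figure D2:**
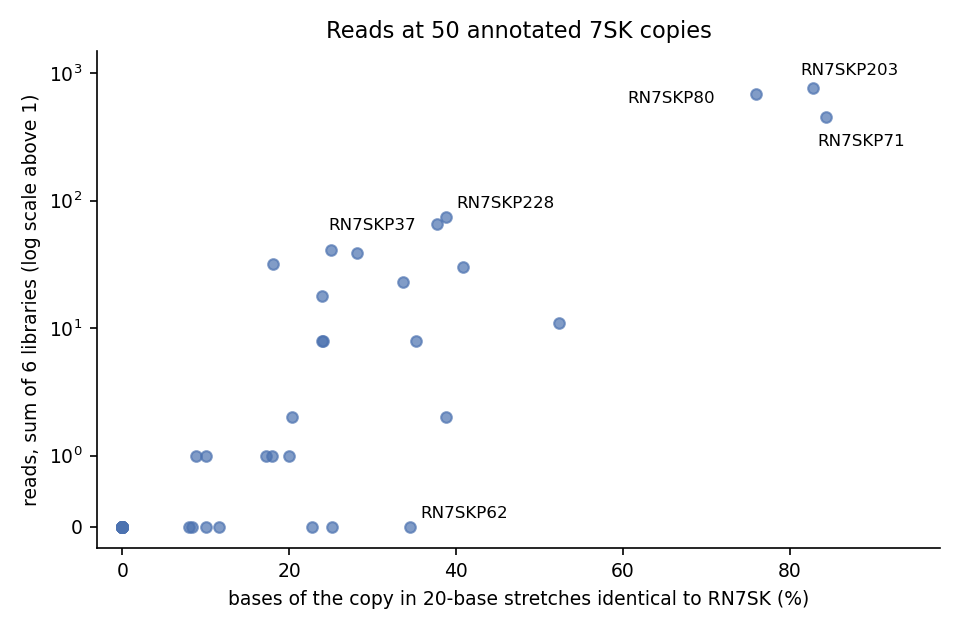
Reads summed over the 6 libraries (log scale above 1, linear below) against the share of a copy's bases in 20-base stretches identical to RN7SK, 1 point for each of 50 annotated copies. The 3 copies at 76.0% to 84.3% have 452 to 766 reads, and the 21 copies at 0% have none.

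The reads of RN7SKP203 followed those of the RN7SK downstream window closely from library to library. RN7SKP203 had 96, 120 and 153 counts with the control siRNA and 147, 142 and 108 after La knockdown. Relative to the downstream window this was 2.57%, 2.65% and 2.91% with the control siRNA and 2.81%, 2.82% and 2.62% after La knockdown. The coefficient of variation of this ratio over the 6 libraries was 4.88%, against the 9.10% that counting error by itself would give on average. Relative to the start-site window the ratio ran from 11.8% to 24.3% (coefficient of variation 26.5%), and relative to the library total it varied by 22.8%. RN7SKP80 had 82, 103 and 118 counts with the control siRNA and 126, 139 and 116 after La knockdown, or 2.20%, 2.28% and 2.24% of the downstream window against 2.41%, 2.76% and 2.81% (coefficient of variation 11.1%, counting error 9.61%). The arms did not overlap in this ratio for RN7SKP80, which was not tested, and did for RN7SKP203. The share of all windows without overlap in such a ratio was not computed. RN7SKP71 had 62, 52 and 83 counts with the control siRNA and 89, 98 and 68 after La knockdown, or 1.66%, 1.15% and 1.58% of the downstream window against 1.70%, 1.95% and 1.65% (16.1%, counting error 11.9%), with overlapping arms. For both, the ratio to the start-site window varied more, by 26.7% and 32.4%. The aligner's handling of reads that fit RN7SK and a copy equally well is not given in the sources used here, so the counts of single copies are uncertain, and the part of such reads in these ratios was not tested.

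**Figure D3:**
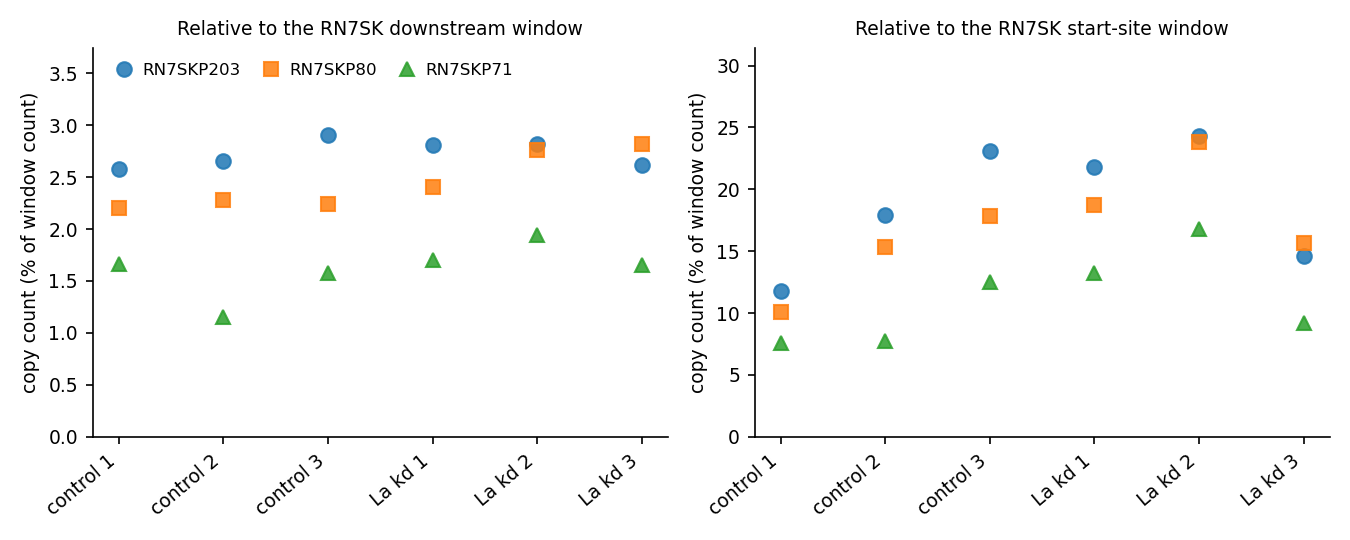
Counts of the 3 copies with the most reads as a percentage of the RN7SK downstream window (left) and of the RN7SK start-site window (right), 1 point per copy and library. RN7SKP203 stays between 2.57% and 2.91% on the left and runs from 11.8% to 24.3% on the right.

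Between the arms, none of the 7 7SK windows with enough reads to be tested was called, against 5.45% of the 1064 windows tested in all (4.79% lower and 0.658% higher after La knockdown). The call was a Benjamini-Hochberg adjusted p under 0.05 in edgeR's quasi-likelihood model. With no adjustment, 0 of the 7 had a p under 0.05, beside 151 lower and 103 higher of the 1064 windows. DESeq2 gave an adjusted p for 13 of the 54 windows and also called 0, with 0 at an unadjusted p under 0.05. Of 2360 windows with an adjusted p, it called 61 lower and 4 higher. With no adjustment, 184 of those were lower and 60 higher at a p under 0.05. The 7 windows, RN7SK's 2 and 5 copies, hold 99.3% of all 7SK counts. All 7 had a fitted log2 fold change above 0, from 0.15 to 0.83 with a median of 0.56, beside a median of -0.05 over all windows tested. Those windows share reads or sequence and do not count as 7 separate observations. Without control replicate 1 their median was 0.23, and without La knockdown replicate 2 it was 0.36. RN7SKP228, at 0.83, had 4, 9 and 17 counts with the control siRNA and 17, 15 and 13 after La knockdown. It could pass the filter on its La knockdown counts alone, which favours a rise. Under a filter on a mean of 20 counts over all libraries, the 5 7SK windows left had a median of 0.34. The median over all windows was then -0.10.

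RN7SKP80 was the one tested member whose CPM did not overlap between the arms. It stood at 21.4, 30.5 and 30.6 CPM with the control siRNA and 45.2, 40.9 and 36.5 CPM after La knockdown, or 0.57 higher on the log2 scale (SE 0.27, edgeR adjusted p = 0.224). Among all tested windows, 14.1% were higher after La knockdown without overlap. RN7SKP71 had CPM of 16.2, 15.4 and 21.5 with the control siRNA and 31.9, 28.9 and 21.4 after La knockdown. Its arms met at control replicate 3 and La knockdown replicate 3, and its log2 fold change was 0.63 (SE 0.30, edgeR adjusted p = 0.224). RN7SKP203 went from 33.4 ± 7.52 to 42.9 ± 9.38 CPM (SD, n = 3 each), or 0.36 higher on the log2 scale (edgeR adjusted p = 0.409). RN7SKP228 and RN7SKP37, on 75 and 66 reads in all, had log2 fold changes of 0.83 (SE 0.49, edgeR adjusted p = 0.283) and 0.56 (SE 0.49, edgeR adjusted p = 0.444). When each library was left out in turn, RN7SKP228 was lowest without control replicate 1, at 0.44, and highest without control replicate 3, at 1.40. RN7SKP37 ranged from 0.17 (without La knockdown replicate 2) to 0.98 (without control replicate 2), and was at 0.23 without control replicate 1. RN7SKP203 was at 0.16 without La knockdown replicate 1 and 0.19 without control replicate 1.

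The copies with fewer reads were not tested in that fit. RN7SKP65 had 8, 7 and 3 counts with the control siRNA and 8, 13 and 2 after La knockdown. RN7SKP178 had 5, 5 and 3 against 8, 13 and 5, and RN7SKP91 had 6, 2 and 0 against 9, 8 and 7. RN7SKP214 had 4, 6 and 4 against 7, 4 and 5, and RN7SKP93 had 2, 1 and 4 against 5, 5 and 6. After scaling, the arms overlapped for RN7SKP65 and RN7SKP214, while RN7SKP178, RN7SKP91 and RN7SKP93 were higher after La knockdown without overlap. That is 3 of the 5 untested members with at least 20 counts over the libraries, beside 12.6% of all 626 untested windows with as many. Without a filter on low counts the value for RN7SKP91 was 1.53 higher on the log2 scale (edgeR adjusted p = 0.581).

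Together the 7SK windows took a small part of each library. Their counts were 0.117%, 0.169% and 0.182% of all counts with the control siRNA and 0.207%, 0.179% and 0.165% after La knockdown, where reads in both RN7SK windows enter both. Control replicate 1 was the lowest of the 6, and the arms overlapped. The copies took 5.76%, 5.89% and 6.46% of the 7SK counts with the control siRNA and 6.87%, 7.78% and 6.70% after La knockdown. These ranges did not overlap, with means of 6.04% ± 0.370 and 7.12% ± 0.581 (SD, n = 3 each). How often other groups of windows separate in this way was not computed. As a share of all counts the copies did overlap between the arms, at 0.00677% to 0.0117% and 0.0111% to 0.0142%. No test was made of these sums, since the members were chosen with earlier results known.

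Other genes with a type 3 promoter were read beside RN7SK, since they share its mode of transcription. All 13 genes of this list had a window and 12 were tested. None was called, beside 51 lower and 7 higher of the 1064 windows tested. At an unadjusted p under 0.05 there were 0, beside 151 lower and 103 higher. DESeq2 called 0 of 13, beside 61 lower and 4 higher of 2360. The median of their log2 fold changes was 0.02 (-0.06 with library size as the scaling and 0.34 with upper quartile factors), and the fitted value lay above 0 for 7 of the 12. The highest was RMRP, the RNA of RNase MRP, at 0.52 (SE 0.26, edgeR adjusted p = 0.234), followed by RPPH1, the RNA of RNase P, at 0.44 (SE 0.23, adjusted p = 0.247). The lowest were RNY3, a Y RNA, at -0.49 (SE 0.30, edgeR adjusted p = 0.302) and RNU6-1, a U6 gene, at -0.35 (SE 0.29, adjusted p = 0.409). These values moved with single libraries: RMRP was at 0.26 without La knockdown replicate 2, and RNY3 and RNU6-1 were at -0.13 and -0.14 without control replicate 1.

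**Figure D4:**
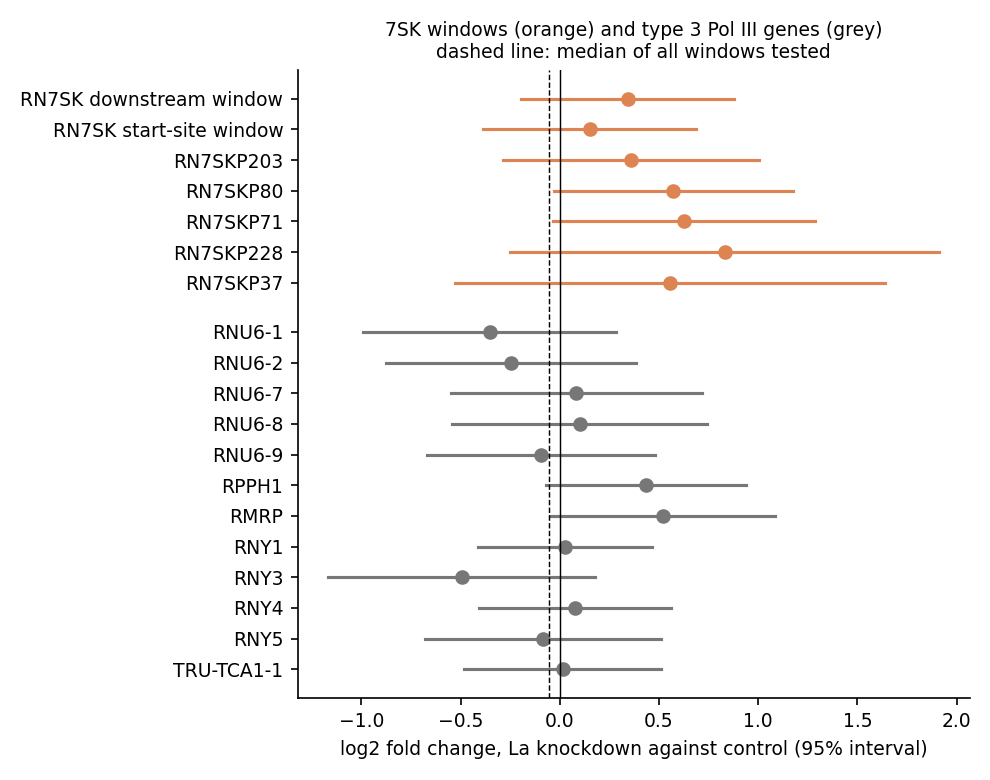
Log2 fold change in La knockdown against control with its 95% interval from the edgeR model, for the 7 tested 7SK windows (orange) and the 12 tested type 3 genes (grey). The solid line marks 0 and the dashed line the median of all windows tested, -0.05. Every interval spans 0.

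The start sites of genes whose proteins work with 7SK gave few reads. The list held 19 genes for proteins of the 7SK particle, P-TEFb and factors that release it, with 41 windows. Only the window of HNRNPA2B1, an RNA-binding protein found on released 7SK, was tested. It had 5, 5 and 19 counts with the control siRNA and 10, 6 and 13 after La knockdown (log2 fold change 0.26, edgeR adjusted p = 0.771). The 3 windows of LARP7 had 4, 3 and 4 reads, each summed over the 6 libraries, and the most read of the MEPCE windows had 10. HEXIM1 had 13 reads and the better read of the CDK9 windows 3. A list of 20 genes for the factors that transcribe RN7SK (SNAPc, BRF2, TBP, RNA polymerase III subunits) had 40 windows with at most 9 reads each, of which 0 were tested. Small RNA at these start sites says nothing of the level of the proteins.

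None of the 54 windows had an adjusted p under 0.05 in the authors' deposited table, beside 0.153% of all its windows. The 29 copy windows without a read could not have been called there. At an unadjusted p under 0.05 there were 0 of the 54, and the share of all windows at that level was not computed. The authors' deposited log2 fold changes of the RN7SK start-site and downstream windows were -0.10 and 0.06. For RN7SKP203, RN7SKP80 and RN7SKP71 the authors' deposited values were 0.07, 0.30 and 0.34, each with an adjusted p of 1. The lowest unadjusted p of a 7SK window in the authors' deposited table was 0.0693, for RN7SKP91.

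Libraries held from 3066299 to 4105806 counts, the most in control replicate 1. SSB, the targeted gene, has 2 windows with too few reads to test. The first had 4, 3 and 3 counts with the control siRNA and 1, 0 and 0 after La knockdown. The second had 0, 0 and 1 with the control siRNA and 0, 2 and 0 after La knockdown. These are small RNA reads and do not measure the SSB mRNA, so they do not check the knockdown.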

How the data were processed

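Small RNA libraries (3 per arm, 6 in all) were made after Antarctic phosphatase and T4 polynucleotide kinase treatment, per the labels' protocols. The authors deposited raw read counts for windows of 400 bp. The submitters' processing notes name Trim Galore, Bowtie2, bedtools, edgeR and GRCh38, without versions. Whether counting used strand, and how multi-mapped reads were placed, is not given in the sources used here. The authors' deposited comparison gives log2 fold changes, average log2 CPM, an F statistic (score) and p-values per the file headers.

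Windows passing filterByExpr (1064) were tested with edgeR 4.0.16 in R 4.3.3, with TMM factors, the arm as the single term and Benjamini-Hochberg adjustment over all tested windows. The common dispersion corresponded to a variation of 28.5% between replicates. Replicates of an arm differed by more than sampling noise (chi-square per degree of freedom at least 48.5). The fit was tested on simulated data. Copies were matched to GENCODE release 29 genes by overlap (50 of 52) and aligned to RN7SK with Biopython 1.88. A gene window had to hold an annotated start.

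RN7SK, every tested 7SK window and the 10 copies with the most reads were named, and of the type 3 list the ends of its range. The rule for RN7SK found 2 windows, so the downstream one was added. Members and lists were chosen with earlier results of these data known. Alternatives were other scalings, DESeq2 1.42.0, other filters, robust dispersion, a replicate block, other denominators and leaving out each library. Figures were drawn with matplotlib 3.10.9.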

Additional observations from a re-analysis of the deposited data

How the results depend on the processing

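In the 14 alternatives run, 0 7SK windows and 0 type 3 windows were called. The protein gene lists had 0 calls as well, but the list of transcription factors had windows with an adjusted p only without a filter, and the list of 7SK partners had none under the filter on a mean of 20 counts. The log2 fold change of the RN7SK start-site window, 0.15, became -0.10 without a filter on low counts and otherwise lay between 0.02 and 0.47. Leaving out each library in turn gave 0.02 to 0.27. That of the downstream window, 0.34, ranged from 0.09 without a filter to 0.65 with upper quartile factors, and from 0.16 to 0.43 when each library was left out. Under upper quartile scaling the median over all windows shifted by 0.32, and 5 7SK windows had an unadjusted p under 0.05. Over all 1064 windows, 83 lower and 308 higher did so. In edgeR with RLE scaling RN7SKP71 and RN7SKP80 did, beside 144 lower and 129 higher. RN7SKP71 and RN7SKP228 did without control replicate 3, beside 180 lower and 102 higher of 1100. RN7SKP71 did without La knockdown replicate 3, beside 248 and 135 of 1139. RN7SKP91 did without a filter, beside 438 and 206 of 21830. The replicate block gave 0.14 and 0.34 for the RN7SK windows (edgeR adjusted p = 0.806 and 0.488) and 0 calls among 7SK windows. Over all windows it raised the calls from 51 lower and 7 higher to 88 and 20. Deviations from the arm means correlated by 0.14, 0.23 and -0.46 between same-numbered libraries. Libraries of different numbers were not compared in this way, so these values cannot show whether the numbers pair the libraries. The log2 ratio of arm means for the copies' share of 7SK counts, 0.24, became 0.34 without RN7SKP203 and 0.17 to 0.29 when each library was left out. For all 7SK windows as a share of all counts it was 0.23, and 0.06 without control replicate 1. For the copies as a share of all counts it was 0.46, and 0.27 without control replicate 1. The cause of these differences was not tested. Read depth left 47 of the 54 windows untested, of which 18 had any read.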

Other observations

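A copy outside the label was also read. RN7SKP118, on chromosome 16, is the copy with reads in a window of another label (PCG_10146, positions 67321661 to 67322060), labelled as protein-coding. The window holds 327 bases of the copy, which were 90.5% identical to RN7SK. Only 20.8% of these bases lay in shared stretches of at least 20 bases. The longest exact match was 37 bases, at bases 247 to 283 of RN7SK. The window had 150 reads in all, above the 75 of RN7SKP228. It had 17, 24 and 29 counts with the control siRNA and 20, 41 and 19 after La knockdown, with overlapping arms. Its log2 fold change was 0.41 (SE 0.39, edgeR adjusted p = 0.471), and was 0.03 without La knockdown replicate 2 and 0.22 without control replicate 1. The other RN7SKP genes in windows of other labels, RN7SKP88, RN7SKP49, RN7SKP129 and RN7SKP221, had 0 reads. It was chosen after its values were seen. GENCODE release 29 names 294 RN7SK and RN7SKP genes, most of which have no window in the count table.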
